A study of Homo sapiens with 12 samples.

Results

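PRDM1, XBP1, IRF4 and ELL2 are the regulators best known for turning a B cell into an antibody-secreting plasma cell. They were taken by symbol from the gene count tables of a study of PRMT5, a protein arginine methyltransferase, in SUDHL6 cells, and all 4 were found among the 23368 genes listed in both tables. SUDHL6 is an established line of human lymphoma cells (diffuse large B-cell lymphoma, germinal-centre class), so 1 line stands for that tumour class and every group carries the same genetic background. The cells received GSK591, an inhibitor of PRMT5, at 200 nM, or 0.01% DMSO as vehicle, for 24 h or 96 h, which gave 4 groups of 3 samples and 12 libraries of polyadenylated RNA. The study's title ties PRMT5 to BCL6, to germinal-centre formation and to lymphoma cell survival; the comparison made here is how the 4 plasma cell factors stood in each group.

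In a germinal-centre B cell the repressor BCL6 holds back PRDM1, which encodes BLIMP-1. BLIMP-1 is itself a repressor and shuts down the B-cell programme, including BCL6, PAX5 and CIITA. IRF4 acts upstream: at high level it activates PRDM1 and represses BCL6. XBP1 is the transcription factor of the unfolded protein response that enlarges the secretory apparatus of plasma cells, and its messenger is spliced by the endoplasmic reticulum sensor ERN1 (IRE1). ELL2 is a transcription elongation factor that favours the secreted form of the immunoglobulin heavy-chain messenger. Counts per gene do not separate spliced from unspliced XBP1 RNA, or the isoforms of any of these genes.

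XBP1 and IRF4 were the members whose levels changed with GSK591, and the 250 bases upstream of their start sites are given from RefSeq (build GRCh38.p14), 5′ to 3′ on each gene's own strand. The XBP1 window is chr22:28800570-28800819 on the minus strand, and the IRF4 window is chr6:391502-391751 on the plus strand. Capitals mark the fixed letters of the ER stress element, which are CCAAT and CCACG with 9 free bases between them.
XBP1: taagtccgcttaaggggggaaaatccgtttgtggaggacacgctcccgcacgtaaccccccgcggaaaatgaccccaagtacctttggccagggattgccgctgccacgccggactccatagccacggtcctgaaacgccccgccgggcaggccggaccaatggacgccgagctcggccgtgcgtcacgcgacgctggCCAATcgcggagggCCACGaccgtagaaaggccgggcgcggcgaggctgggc
IRF4: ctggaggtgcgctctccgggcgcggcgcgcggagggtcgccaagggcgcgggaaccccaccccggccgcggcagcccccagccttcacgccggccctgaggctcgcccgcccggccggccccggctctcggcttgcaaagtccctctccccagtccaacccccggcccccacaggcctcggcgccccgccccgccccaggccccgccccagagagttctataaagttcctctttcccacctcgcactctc
The ER stress element lay 52 to 34 bases before the XBP1 start and read CCAATCGCGGAGGGCCACG. It is a rare motif, held on either strand by 26 of 35116 upstream windows of this length (0.074%). The interferon-stimulated response element, GAAA repeated after a pair of free bases (3.02% of windows), the BCL6 and STAT core TTCCNNGAA (3.86%), the XBP1 and ATF6 element TGACGTGG (0.612%) and the PRDM1 and IRF element AAGTGAAA (1.37%) were not matched on either strand of these windows. The further XBP1 window and the 2 PRDM1 windows of the table held no match to any of the motifs. GC content was 67.6% in the XBP1 window and 76.0% in the IRF4 window. A match is a description of the letters, and no binding was measured.

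The libraries held 48477456 to 64363186 counted reads, apart from vehicle 96 h replicate 1, which held 547893015. Both libraries numbered 2 at 96 h stood apart from their groups. Over all genes, chi-square per degree of freedom was 16.6 to 39.8 in pairs that held one of them. It was 2.97 to 9.12 in the other pairs at that time. The 96 h results of the members, the list counts, MZB1 and ERN1 are therefore also given without these libraries. They were picked out for their spread in these same data, so leaving them out lowers the spread by selection. Smaller p-values without them are not stronger evidence. Of 13566 genes tested without them 60.5% were called, against 40.2% of 13514 with all libraries of 96 h. The line kept its labelled type, with all 5 B-cell markers and all 5 germinal-centre markers above a mean of 1 CPM (counts per 1000000 counted reads, after scaling). Summed germinal-centre markers were 828 to 841 CPM in vehicle and 1039 to 1081 CPM in GSK591 at 96 h. Summed T, NK, fibroblast and epithelial markers stayed under 1.26 CPM in every library, with CD3D, CD2, DCN and KRT19 at 0 in all 12. Summed myeloid markers were 0.193 to 0.519 CPM in vehicle and 0.738 to 1.32 CPM in GSK591 at 96 h, and the part of such small levels in the results was not tested.

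The members differed in how they moved. XBP1 fell by 20.9% with GSK591 at 24 h and fell by 57.7% at 96 h. IRF4 showed no detectable change at 24 h and fell by 28% with GSK591 at 96 h. PRDM1 and ELL2 did not pass the test with GSK591 at either time, and PRDM1 was the member near the detection floor, under 1 CPM on average in every group. With bulk RNA, fewer cells holding a transcript and less of it per cell cannot be told apart.

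**Figure D1:**
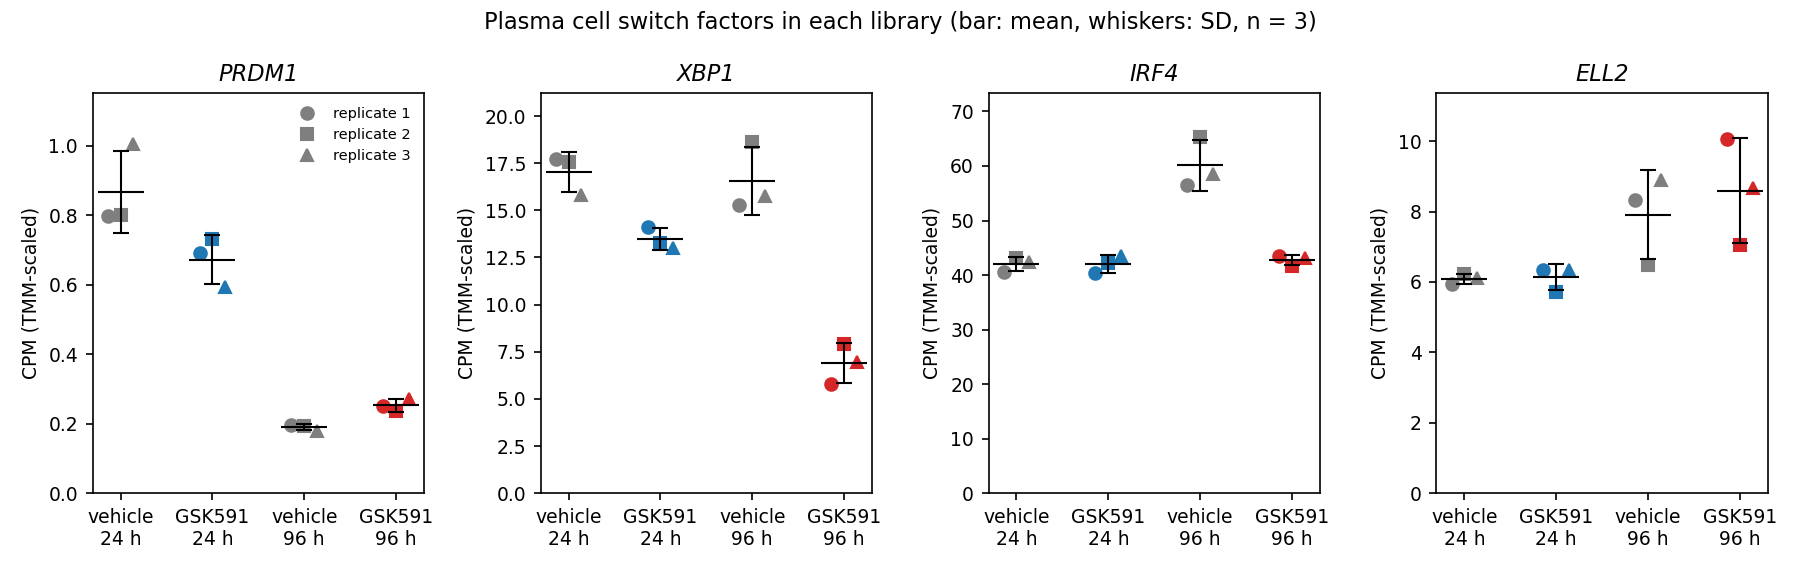
Level of each member in CPM (TMM-scaled, linear axis from 0) in the 12 libraries, with symbols for replicates, bars for the group mean and whiskers for the SD (n = 3). XBP1 is lowest in the 3 GSK591 96 h libraries (5.80 to 7.93 CPM), IRF4 is highest in the 3 vehicle 96 h libraries (56.4 to 65.4 CPM), and the PRDM1 axis ends near 1 CPM.

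The plot of member levels by library sets the 4 genes side by side, each on its own axis. IRF4, the activator upstream of PRDM1, was lower with GSK591 at 96 h and not at 24 h. At 24 h its level was 40.5, 43.1 and 42.5 CPM in vehicle replicates 1 to 3 and 40.3, 42.2 and 43.5 CPM in GSK591. Those groups overlapped, and the log2 fold change was 0.00012 ± 0.04 (SE; 95% confidence interval -0.08 to 0.08; edgeR quasi-likelihood test, Benjamini-Hochberg adjusted p = 0.999). At 96 h the values were 56.4, 65.4 and 58.5 CPM in vehicle and 43.5, 41.7 and 43.2 CPM in GSK591. Every GSK591 library was below every vehicle library, and the groups of 54.6% of all genes tested at 96 h did not overlap. The log2 fold change was -0.47 ± 0.06 (95% confidence interval -0.62 to -0.33, adjusted p = 0.0014 by edgeR). Without both libraries numbered 2 it was -0.40 ± 0.04 (adjusted p = 2.93e-06, edgeR). IRF4 with GSK591 at 96 h (42.8 ± 0.954 CPM, SD, n = 3) lay in the range of the 24 h groups, at 42.0 ± 1.35 in vehicle and 42.0 ± 1.59 in GSK591, while vehicle at 96 h stood above them at 60.1 ± 4.69.

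PRDM1, the repressor that ends the B-cell programme, was read from few counts. Vehicle at 24 h gave 42, 39 and 55 reads, and GSK591 gave 36, 41 and 30. These correspond to 0.799, 0.800 and 1.01 CPM in vehicle and to 0.691, 0.731 and 0.594 CPM in GSK591. The GSK591 libraries were all below the vehicle libraries, as the groups of 31.9% of all genes tested at 24 h did not overlap. The difference did not pass the test: the log2 fold change was -0.37 ± 0.19 (95% confidence interval -0.76 to 0.02, adjusted p = 0.201, edgeR). It was -0.24 without vehicle replicate 3, the highest library (adjusted p = 0.492, edgeR).

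At 96 h PRDM1 had 111 reads in the deep vehicle library and 10 and 9 in vehicle replicates 2 and 3, against 13, 16 and 15 with GSK591. In CPM the vehicle libraries held 0.197, 0.193 and 0.180 and the GSK591 libraries 0.251, 0.236 and 0.272. The direction was opposite to that at 24 h, with all GSK591 libraries above all vehicle libraries, and at 96 h the groups of 54.6% of all genes tested did not overlap. The log2 fold change of 0.40 ± 0.24 did not pass (95% confidence interval -0.15 to 0.94, adjusted p = 0.220, edgeR). It was 0.43 ± 0.29 without both libraries numbered 2 (adjusted p = 0.231, edgeR). Counting error alone was wide: the exact 95% Poisson interval ran from 0.0822 to 0.341 CPM in vehicle replicate 3 and from 0.162 to 0.237 CPM in the deep library, and such intervals cover counting error only.

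**Figure D2:**
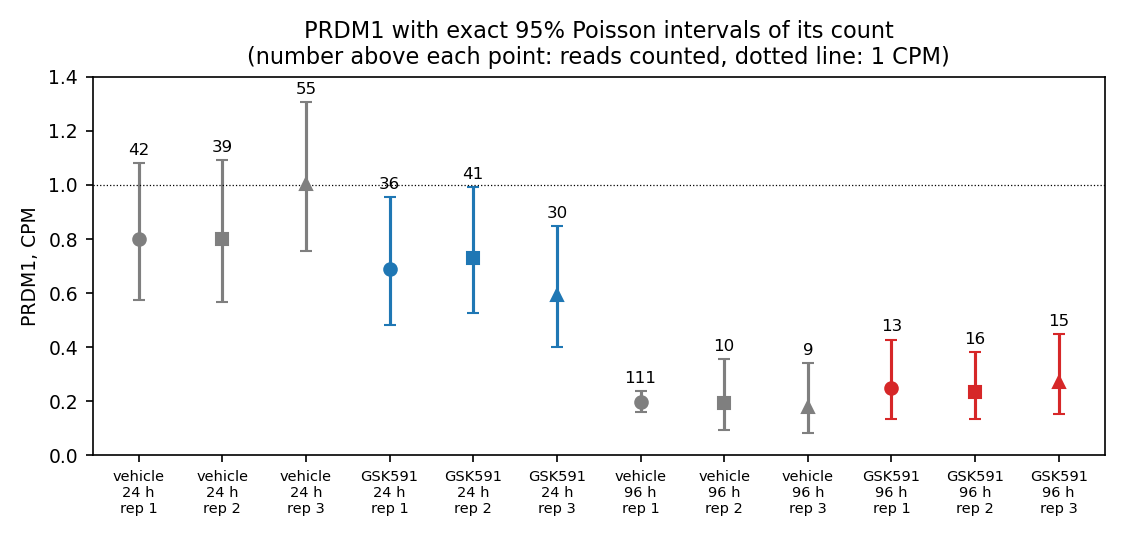
PRDM1 level in CPM (linear axis) in each of the 12 libraries, with whiskers for the exact 95% Poisson interval of its count, the count printed above each point and a dotted line at 1 CPM. The 96 h libraries lie between 0.180 and 0.272 CPM and the 24 h libraries between 0.594 and 1.01 CPM, with the narrowest 96 h interval in the library of 111 reads.

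The plot of PRDM1 counts shows that the intervals of single libraries overlap between treatments at each time, while the 24 h and 96 h points are separated. The spread between PRDM1 replicates was small beside counting error at 96 h, with an SD of 0.00902 CPM in vehicle and 0.0179 CPM in GSK591.

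XBP1, the secretory regulator, showed the largest GSK591 change of the 4 at 96 h. At 24 h it stood at 17.7, 17.6 and 15.8 CPM in vehicle and at 14.1, 13.3 and 13.0 CPM in GSK591. No GSK591 library reached the lowest vehicle library, and the groups of 31.9% of all genes tested at 24 h did not overlap. The log2 fold change was -0.34 ± 0.05 (95% confidence interval -0.45 to -0.22, adjusted p = 0.000393, edgeR). XBP1 was 1 of 4 members called at 24 h, where 14.7% of 13173 genes tested were called. The 24 h call was lost when all 12 libraries shared 1 estimate of the spread, at a log2 fold change of -0.34 and adjusted p = 0.202 (edgeR), a fit in which 29 genes passed against 1940. The typical spread between replicates (biological coefficient of variation) was 2.35% in the 24 h fit, 8.19% in the 96 h fit and 5.90% with all 12 libraries. The shared estimate was thus wider than that of 24 h and narrower than that of 96 h. With it 7392 genes were called at 96 h, against 5437.

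At 96 h XBP1 was at 15.3, 18.6 and 15.8 CPM in vehicle and at 5.80, 7.93 and 6.97 CPM in GSK591. The highest GSK591 library was under 8 CPM and the lowest vehicle library over 15 CPM, where the groups of 54.6% of all genes did not overlap. XBP1 was 2.36-fold lower with GSK591, a log2 fold change of -1.24 ± 0.13 (95% confidence interval -1.53 to -0.95, adjusted p = 0.00055, edgeR). A log2 change of that size or larger, in either direction, was seen in 1.86% of genes tested at 96 h. Without both libraries numbered 2 it was -1.27 ± 0.08 (adjusted p = 4.22e-08, edgeR). XBP1 and IRF4 made 2 of 4 members called at 96 h, where 40.2% of 13514 genes tested were called, and both were lower, as 19.6% of genes were.

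ELL2, the elongation factor, was at 5.93, 6.22 and 6.10 CPM in vehicle and at 6.35, 5.71 and 6.34 CPM in GSK591 at 24 h. The groups overlapped, with a log2 fold change of 0.0098 ± 0.07 (95% confidence interval -0.14 to 0.16, adjusted p = 0.950, edgeR). At 96 h it was at 8.34, 6.48 and 8.89 CPM in vehicle and at 10.1, 7.05 and 8.67 CPM in GSK591. The groups overlapped again, and the log2 fold change of 0.13 ± 0.15 did not pass (95% confidence interval -0.22 to 0.47, adjusted p = 0.533, edgeR). It was 0.14 ± 0.08 without both libraries numbered 2 (adjusted p = 0.163, edgeR). In both 96 h groups the library numbered 2 was the lowest for ELL2 and the highest for XBP1. The GRCh38 annotation places 36 exon bases of an opposite-strand gene, AC104123.1, inside ELL2 exons; the sources used here do not give whether reads were counted by strand.

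**Figure D3:**
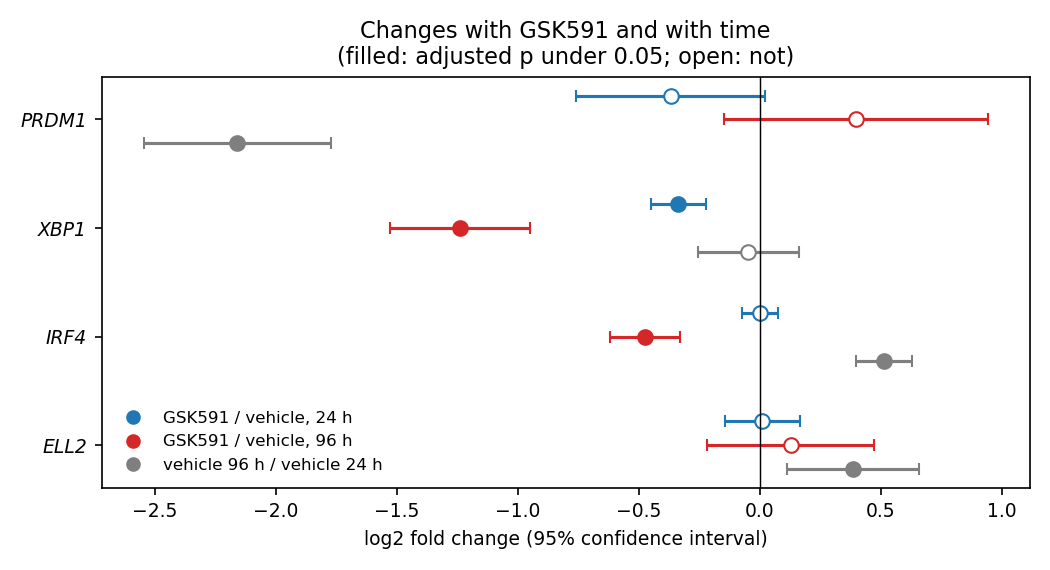
Log2 fold change of each member with its 95% confidence interval for GSK591 over vehicle at 24 h, GSK591 over vehicle at 96 h, and vehicle 96 h over vehicle 24 h; filled points passed adjusted p under 0.05. XBP1 sits at -0.34 and -1.24 with GSK591, IRF4 at -0.47 at 96 h, and PRDM1 at -2.16 between vehicle times.

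The GSK591 effect differed between times for XBP1 and IRF4. The 96 h effect minus the 24 h effect, each against the vehicle of its own time, was -0.91 ± 0.14 on the log2 scale for XBP1 (95% confidence interval -1.22 to -0.60, adjusted p = 0.00117, edgeR on 12 libraries) and -0.49 ± 0.08 for IRF4 (95% confidence interval -0.65 to -0.32, adjusted p = 0.00121). These were 2 of 4 members, where 24.1% of 13665 genes were called. For PRDM1 the difference was 0.74 ± 0.28 and missed the threshold (95% confidence interval 0.15 to 1.34, adjusted p = 0.0729, edgeR). For ELL2 it was 0.10 ± 0.18 (95% confidence interval -0.29 to 0.49, adjusted p = 0.726, edgeR).

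Between vehicle groups, 96 h against 24 h, PRDM1 was the member that moved most. It was 4.47-fold lower at 96 h, from 0.868 ± 0.119 CPM to 0.190 ± 0.00902 CPM (SD, n = 3), a log2 fold change of -2.16 ± 0.18 (adjusted p = 9.08e-07, edgeR). Changes this large in either direction were seen in 0.256% of genes tested. IRF4 was higher at 96 h by 0.51 ± 0.05 on the log2 scale (adjusted p = 6.07e-06, edgeR). ELL2 was higher by 0.39 ± 0.13 (adjusted p = 0.0227, edgeR), a call lost when any one of the vehicle libraries other than 96 h replicate 2 was left out (adjusted p 0.051 to 0.093). XBP1 was at 17 ± 1.06 and 16.6 ± 1.80 CPM, a log2 fold change of -0.05 ± 0.10 (95% confidence interval -0.26 to 0.16, adjusted p = 0.715, edgeR). Thus 3 of 4 members were called, where 47.7% of genes were, and time in culture and the separately deposited tables of each time cannot be told apart.

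The order of groups was different for each member. PRDM1 ran from vehicle 96 h through GSK591 96 h and GSK591 24 h to vehicle 24 h, and no neighbours overlapped, with ratios of means of 1.33, 2.66 and 1.29. Between treatments, the groups of 31.9% of all genes at 24 h and 54.6% at 96 h did not overlap. XBP1 ran from GSK591 96 h (6.90 ± 1.06 CPM) through GSK591 24 h (13.5 ± 0.592) to the vehicle groups, which overlapped. IRF4 was lowest in 3 overlapping groups and highest in vehicle 96 h. ELL2 was lowest in both 24 h groups, which overlapped at 6.08 ± 0.142 and 6.13 ± 0.367 CPM, and highest in both 96 h groups, which overlapped at 7.90 ± 1.26 and 8.60 ± 1.5 CPM.

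Levels of different genes are comparable only per length, here as CPM per kb of exon in the GENCODE v29 annotation. In vehicle at 24 h XBP1 (8.36 ± 0.519 CPM per kb) and IRF4 (7.88 ± 0.254) were close, ELL2 was at 1.01 ± 0.0235 and PRDM1 at 0.153 ± 0.0210. With GSK591 at 96 h IRF4 was at 8.03 ± 0.179 CPM per kb, XBP1 at 3.38 ± 0.522, ELL2 at 1.42 ± 0.249 and PRDM1 at 0.0446 ± 0.00315. PRDM1 was the lowest member per length in every group.

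The authors' deposited table gives log2 fold changes of the same direction for the called members. In the authors' deposited table XBP1 was at -0.355 at 24 h (FDR 6.44e-08) and -1.24 at 96 h (FDR 2.54e-17), and IRF4 at -0.470 at 96 h (FDR 1.12e-07). PRDM1 in the authors' deposited table was at -0.387 at 24 h (FDR 0.307) and 0.386 at 96 h (FDR 0.571), and ELL2 at 0.128 at 96 h (FDR 0.795). At 24 h the authors' values were -0.0085 for ELL2 and -0.018 for IRF4, opposite in sign to the small values found here.

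In a list of B-cell factors, drawn up as opposing plasma cell fate, more of those called were higher than lower with GSK591. The name is a loose label for the list, and the part of each factor in plasma cell fate was not tested. At 24 h 4 of 15 tested factors rose and the other 11 did not pass, where 7.44% of all genes rose and 7.29% fell; 2 rose with scaling by library size alone, and the count ran from 0 to 6 over the alternatives. At 96 h 6 rose and 1 fell, where 20.7% and 19.6% of all genes did, and the median log2 fold change was 0.17 against 0.00036 over all genes; the rising count ran from 2 to 7 over the alternatives, and without both libraries numbered 2, 7 rose and 1 fell, where 30.2% of all genes rose and 30.2% fell. BACH2, a repressor of PRDM1, rose by 0.15 ± 0.03 at 24 h (adjusted p = 0.0052) and by 0.60 ± 0.06 at 96 h (adjusted p = 0.00055, edgeR), from 178 to 268 CPM at 96 h. TCF3, an E protein of the B lineage, rose by 0.11 ± 0.02 at 24 h. BCL6 was at 462 CPM in vehicle and 523 CPM in GSK591 at 96 h, a log2 change of 0.19 ± 0.05 that passed with all libraries (adjusted p = 0.0174, edgeR) and failed without vehicle replicate 1 or 3 or GSK591 replicate 1 or 3 of 96 h (adjusted p 0.0593 to 0.0783).

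Genes that BLIMP-1 is known to repress moved both ways. Of 10 tested, 1 rose and 1 fell at 24 h, against 7.44% and 7.29% of all genes, and with library size alone the 1 gene called was lower. At 96 h 5 rose and 3 fell, against 20.7% and 19.6% of all genes, with 2 to 6 rising and 1 to 3 falling over the alternatives. Without both libraries numbered 2, 6 rose and 3 fell, where 60.5% of all genes were called. CIITA, the regulator of MHC class II genes, was at 83.8 CPM in vehicle and 118 CPM in GSK591 at 96 h, a rise of 0.51 ± 0.08 (adjusted p = 0.00273, edgeR). CD22, an inhibitory B-cell receptor, fell by 0.09 ± 0.02 at 24 h, and MYC, the growth regulator, fell by 0.43 ± 0.09 at 96 h (adjusted p = 0.00652, edgeR). This list shares PAX5, SPIB, ID3, BCL6 and ETS1 with the list of B-cell factors.

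Genes in a list of targets of XBP1 and of the unfolded protein response moved both ways at 96 h. Which of them XBP1 drives in these cells was not tested. Of 27 tested, 3 rose and 1 fell at 24 h, against 7.44% and 7.29% of all genes, and this turned to 1 and 5 with library size alone. At 96 h 4 rose and 8 fell, against 20.7% and 19.6% of all genes, with a median of -0.09; over the alternatives 2 to 8 rose and 7 to 14 fell. Without both libraries numbered 2 at 96 h, 8 rose and 11 fell, where 60.5% of all genes were called. At 96 h SDF2L1 fell by 0.53 ± 0.10, the glycosylation subunit OSTC by 0.42 ± 0.08, the folding enzyme PDIA6 by 0.35 ± 0.06 and HSPA5, the chaperone BiP, by 0.24 ± 0.06 (adjusted p 0.00434, 0.00549, 0.00272 and 0.0125, edgeR). HSPA5 had also fallen at 24 h by 0.15 ± 0.02 (adjusted p = 9.34e-05, edgeR). EDEM1, a lectin of endoplasmic reticulum degradation, rose by 0.11 ± 0.02 at 24 h and by 0.42 ± 0.06 at 96 h, and SYVN1, a ubiquitin ligase, rose by 0.37 ± 0.06 at 96 h (adjusted p 0.00372, 0.00154 and 0.00234, edgeR). HERPUD1 and DNAJB9 also rose at 96 h, by 0.35 ± 0.09 and 0.30 ± 0.10 (adjusted p 0.0146 and 0.0366, edgeR).

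**Figure D4:**
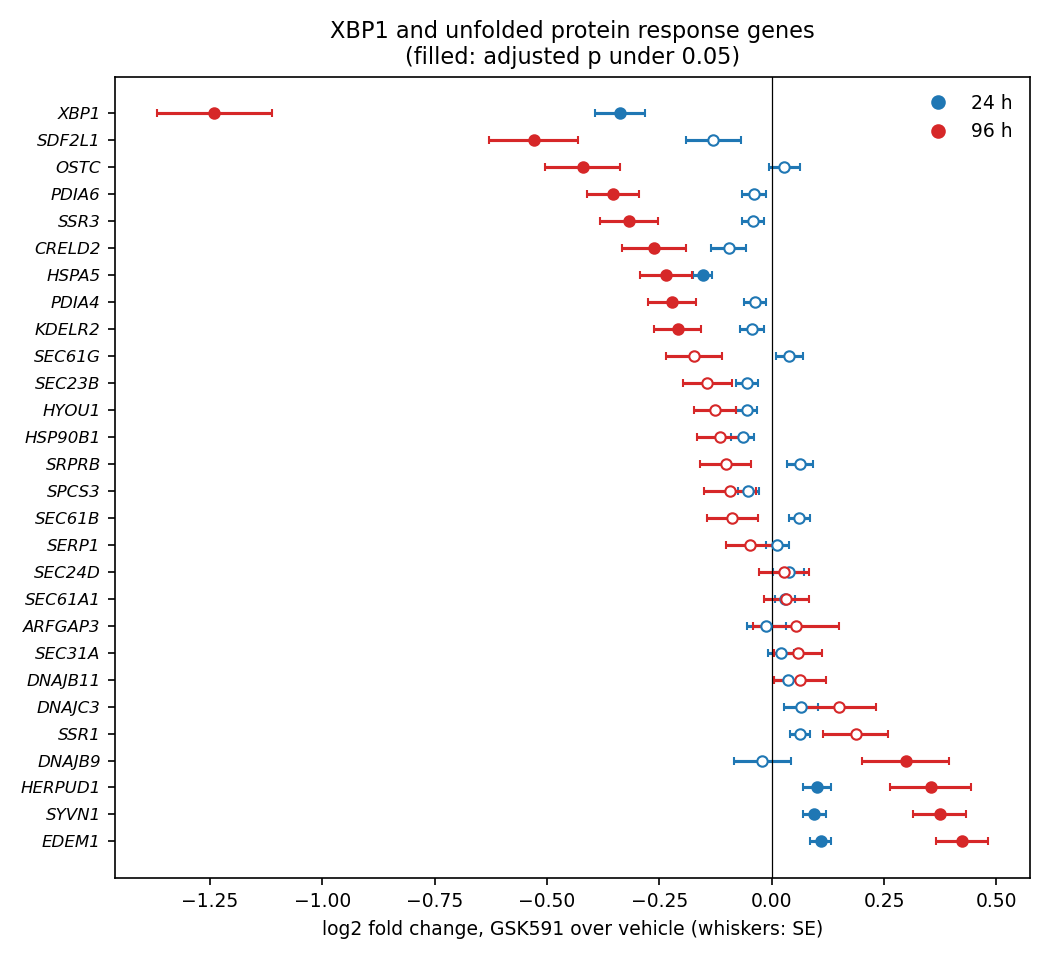
Log2 fold change of XBP1 and of 27 tested unfolded protein response genes, GSK591 over vehicle, at 24 h and 96 h, with whiskers for the SE; filled points passed adjusted p under 0.05. XBP1 at -1.24 lies further from 0 at 96 h than any gene of the list, which runs from -0.53 (SDF2L1) to 0.42 (EDEM1).

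The plot of unfolded protein response genes shows XBP1 apart from the list at 96 h. Among 9 unfolded protein response sensors, processing enzymes and related factors, 1 rose and 1 fell at 24 h. At 96 h 2 rose and 1 fell. Of all genes, 14.7% were called at 24 h and 40.2% at 96 h. Over the alternatives at 96 h 1 to 3 rose and 1 to 3 fell. Without both libraries numbered 2, 3 rose and 3 fell, where 30.2% of all genes rose and 30.2% fell. EIF2AK3, the sensor PERK, rose by 0.16 ± 0.03 at 24 h and by 0.49 ± 0.08 at 96 h (adjusted p 0.00426 and 0.00296, edgeR). C22orf28, the older symbol of the ligase RTCB that joins spliced XBP1 RNA, fell by 0.23 ± 0.06 at 96 h (adjusted p = 0.0126, edgeR). ERN1, the enzyme that cuts XBP1 RNA, was at 2.67 CPM in vehicle and 2.13 CPM in GSK591 at 96 h. Its log2 fold change of -0.29 ± 0.15 did not pass (adjusted p = 0.146, edgeR), and it passed at -0.43 without GSK591 replicate 2 (adjusted p = 0.0213). Without both libraries numbered 2 ERN1 passed at -0.37 ± 0.12 (adjusted p = 0.0206, edgeR), where 60.5% of all genes were called. ATF6B, related to the sensor ATF6, was at -0.10 ± 0.03 at 24 h (adjusted p = 0.0115, edgeR), a call lost without vehicle replicate 3 or GSK591 replicate 3 (0.0522 and 0.0792).

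Genes in a list of the ELL2 family, the super elongation complex and related factors also moved both ways. Of 16 tested, 4 rose and 1 fell at 24 h, against 7.44% and 7.29% of all genes, while with library size alone the 3 genes called were all lower. At 96 h 4 rose and 3 fell, against 20.7% and 19.6% of all genes, with 3 to 7 rising and 1 to 4 falling over the alternatives. Without both libraries numbered 2, 7 rose and 4 fell, where 30.2% of all genes rose and 30.2% fell. CDK9, the kinase that releases paused polymerase, fell by 0.34 ± 0.05 at 96 h (adjusted p = 0.00252, edgeR). Its cyclins CCNT2 and CCNT1 rose by 0.28 ± 0.05 and 0.25 ± 0.05, and AFF4, the scaffold, rose by 0.41 ± 0.08 at 96 h (adjusted p 0.00488, 0.00547 and 0.00522, edgeR). At 24 h AFF4 was at 0.10 ± 0.03 and KIAA0947 at 0.09 ± 0.03; each call was lost without vehicle replicate 2 or 3 or GSK591 replicate 1, and also without GSK591 replicate 3 for AFF4 and 2 for KIAA0947 (adjusted p 0.0602 to 0.166 and 0.0568 to 0.153, edgeR).

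Of 14 tested IRF family members and IRF4 partners, 4 rose and 1 fell at 24 h, against 7.44% and 7.29% of all genes, and 1 rose and 1 fell with library size alone. This list shares IRF8, SPI1 and SPIB with the list of B-cell factors. IRF8 and SPI1 were among the genes that rose at both times, and SPIB among those that fell at 96 h. At 96 h 5 rose and 4 fell, against 20.7% and 19.6% of all genes, with 3 to 6 rising and 1 to 6 falling over the alternatives. Without both libraries numbered 2, 5 rose and 6 fell, where 30.2% of all genes rose and 30.2% fell. BATF3, a basic leucine zipper protein of the family that binds DNA with IRF4, fell by 0.81 ± 0.13 at 96 h (adjusted p = 0.00266, edgeR), from 2.76 to 1.55 CPM. IKZF3, the lymphoid factor Aiolos, rose by 0.52 ± 0.09 and SPI1, the ETS factor PU.1, by 0.39 ± 0.09 at 96 h (adjusted p 0.00314 and 0.00871, edgeR). At 24 h IKZF3 was at 0.15 ± 0.03, lost without GSK591 replicate 1 (adjusted p 0.0583, edgeR), and SPI1 at 0.11 ± 0.03, lost without vehicle replicate 1 or 2 or GSK591 replicate 1 (0.0622 to 0.140).

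Plasma cell surface and secretory genes moved both ways around a median of -0.0034 at 96 h. Their list shares EAF2 with the list of the ELL2 family. Of 20 tested, 3 rose and 4 fell at 24 h, against 7.44% and 7.29% of all genes, and 1 rose and 4 fell with library size alone. At 96 h 4 rose and 5 fell, against 20.7% and 19.6% of all genes, with 1 to 6 rising and 4 to 7 falling over the alternatives. Without both libraries numbered 2, 6 rose and 7 fell, where 30.2% of all genes rose and 30.2% fell. DERL3, a derlin of endoplasmic reticulum degradation, fell by 1.05 ± 0.19 at 96 h and FKBP11, a folding enzyme of secretory cells, by 0.70 ± 0.12 (adjusted p 0.0040 and 0.00274, edgeR). The survival receptors TNFRSF17 (BCMA) and TNFRSF13B (TACI) fell by 0.31 ± 0.07 and 0.50 ± 0.10 (adjusted p 0.00829 and 0.00627, edgeR). CD27, the memory and plasma cell receptor, rose by 0.34 ± 0.05 (adjusted p = 0.0026, edgeR). SLAMF7, CXCR4 and POU2AF1 also rose at 96 h, by 0.84 ± 0.26, 0.45 ± 0.12 and 0.15 ± 0.05 (adjusted p 0.0323, 0.0165 and 0.0327, edgeR). The SLAMF7 groups overlapped. SDC1 (CD138), the defining plasma cell marker, was itself under 1 CPM, at 0.387 CPM in vehicle and 0.213 CPM in GSK591 at 96 h. Its log2 fold change of -0.84 ± 0.24 passed with all libraries (adjusted p = 0.0228, edgeR) and failed without any one vehicle library or GSK591 replicate 3 of 96 h (0.0548 to 0.0848). At 24 h SDC1 was at -0.87 ± 0.29 (adjusted p = 0.0464, edgeR), a call lost without vehicle replicate 2 or 3 or GSK591 replicate 1 (0.122 to 0.234), and its value was -0.55 without GSK591 replicate 1. MZB1, a chaperone of immunoglobulin assembly, was at -0.43 ± 0.19 at 96 h (adjusted p = 0.104, edgeR) and ran from -0.25 without GSK591 replicate 1 (adjusted p = 0.254) to -0.74 ± 0.08 without GSK591 replicate 2 (adjusted p = 0.000161). Without both libraries numbered 2 MZB1 passed at -0.71 ± 0.07 (adjusted p = 1.93e-06, edgeR), where 60.5% of all genes were called. At 24 h FKBP11 was at -0.14 ± 0.03, lost without GSK591 replicate 3 (adjusted p 0.0507, edgeR), and MZB1 at -0.16 ± 0.04, lost without vehicle replicate 2 or GSK591 replicate 3 (0.0566 and 0.0511). Of the list genes selected by the naming rule or after their values were seen, and run under the alternatives, 15 passed at 24 h. All 15 failed when the 12 libraries shared 1 estimate of the spread (adjusted p 0.208 to 0.750, edgeR). Over the 7 lists together, 27 of 102 tested genes passed at 24 h in the fit of 6 libraries, and 0 of 102 passed in the fit of 12, where 11 had an unadjusted p under 0.05 by edgeR. Of all genes, 14.7% of 13173 passed in the fit of 6 and 29 of 13665 in the fit of 12, so the loss is not particular to these lists. The share of all genes under that unadjusted p is not given.

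**Figure D5:**
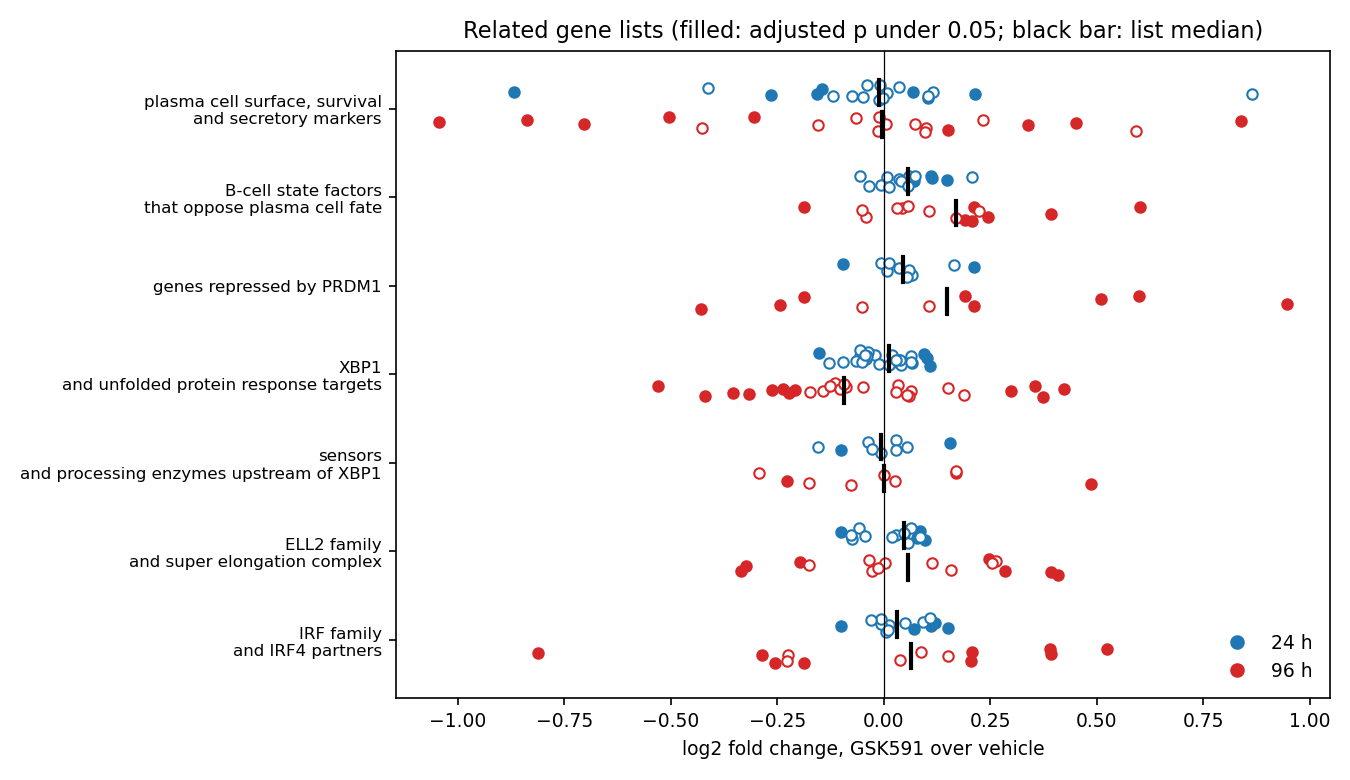
Log2 fold change of every tested gene in 7 lists related to the members, GSK591 over vehicle, at 24 h and 96 h; filled points passed adjusted p under 0.05 and black bars are list medians. At 96 h the medians run from -0.09 (unfolded protein response genes) to 0.17 (B-cell factors), and each list holds genes on both sides of 0.

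The plot of related lists shows a wider range at 96 h than at 24 h in each of the 7 lists. Across the 12 libraries the members did not share 1 pattern: Pearson r of log2 CPM was -0.70 between PRDM1 and IRF4, -0.76 between PRDM1 and ELL2, -0.62 between XBP1 and ELL2, 0.36 between PRDM1 and XBP1, 0.36 between XBP1 and IRF4, and 0.32 between IRF4 and ELL2. These correlations describe 12 libraries in 4 groups that share time and treatment.

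Among 8930 other genes of sufficient level, the patterns most like each member were ranked by the same r over 12 libraries. PRDM1 was most like CERS5 (0.99), EGR2 (0.98) and PITPNA (0.98); EGR2, for example, had 12.7, 12, 7.47 and 8.57 CPM in vehicle 24 h, GSK591 24 h, vehicle 96 h and GSK591 96 h. XBP1 was most like DECR1 (0.99), AKR1A1 (0.99) and CCDC71 (0.99); DECR1 had 55.6, 50.0, 53.6 and 32.5 CPM in the same order. IRF4 was most like CEBPG (0.98), TRIB3 (0.96) and PRR11 (0.95); TRIB3 had 13.0, 13.1, 24.1 and 15 CPM. ELL2 was most like FBXL18 (0.98), LGALS1 (0.96) and CORO1B (0.96); LGALS1 had 27.1, 29.9, 53.9 and 81.1 CPM. Such likeness was common, since 546, 646, 70 and 193 genes passed an r of 0.9 with PRDM1, XBP1, IRF4 and ELL2.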

How the data were processed

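Polyadenylated RNA from 12 samples of SUDHL6 cells was sequenced. Per the submitters' processing notes the authors used STAR, HTSeq and edgeR with build hg19 (GRCh37); the sources used here do not give versions, annotation, strand setting or filters. The deposited tables hold raw counts per gene, and the authors' own log2 fold changes and log2 CPM with p-values and FDR, used here only where named. Here the deposited counts were scaled by TMM, filtered with filterByExpr and tested with the edgeR 4.0.16 quasi-likelihood test (R 4.3.3, two-sided, Benjamini-Hochberg over all genes tested, threshold 0.05). Each time was fitted on its 6 libraries; the difference between times and the comparison of vehicle groups used 12 libraries with 4 group means. Printed CPM are TMM-scaled over 12 libraries, as mean ± SD, and tests on simulated data with known changes preceded the real fits. Motifs and coordinates come from the RefSeq table (GRCh38.p14), and exon lengths from GENCODE v29. Symbols were matched as listed, and ELL2 is named without an upstream window.

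The members and lists were chosen with earlier results of these data known. In each list the text names the 2 genes with the smallest p at each time (1 gene so selected is not reported here), and for each member the 3 most alike genes by r of log2 CPM (prior count 2, average log2 CPM of at least 3). SDC1, DERL3, TNFRSF17, TNFRSF13B, MZB1 at 96 h, BCL6, MYC, HSPA5 at 96 h, PDIA6, SDF2L1, OSTC, ERN1, AFF4 at 96 h and CCNT1 were named after their values were seen. So were SLAMF7, CXCR4, POU2AF1, HERPUD1 and DNAJB9 at 96 h, for which the alternatives are not given. Near the detection floor means a mean under 1 CPM in every group. Nothing in the labels says that replicates came from separate cultures, so p-values measure spread among these libraries only, and that spread may be technical. Alternatives were library-size scaling, DESeq2 1.42.0, no filter, a filter of at least 5 CPM in 3 libraries, a replicate block, all 12 libraries in 1 fit, thinning the deepest library, and leaving out libraries.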

Additional observations from a re-analysis of the deposited data

Results flagged for a closer look

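The GSK591 effect at 96 h differed from that at 24 h by a test of the difference itself (12 libraries, edgeR quasi-likelihood test, adjusted p under 0.05) for the following members and named list genes, given as the 96 h log2 effect minus the 24 h log2 effect. Among the plasma cell factors it was -0.91 for XBP1 and -0.49 for IRF4. Among plasma cell genes it was -0.57 for FKBP11, -0.79 for DERL3, -0.28 for TNFRSF17, -0.39 for TNFRSF13B and 0.22 for CD27. Among B-cell factors and genes repressed by PRDM1 it was 0.44 for BACH2, 0.43 for CIITA and -0.50 for MYC. Among unfolded protein response targets it was 0.30 for EDEM1, 0.26 for SYVN1, -0.33 for PDIA6, -0.41 for SDF2L1 and -0.46 for OSTC. Among the sensors and processing enzymes it was 0.32 for EIF2AK3 and -0.30 for C22orf28. In the elongation complex it was 0.30 for AFF4, -0.29 for CDK9, 0.19 for CCNT2 and 0.15 for CCNT1, and among IRF4 partners it was 0.36 for IKZF3 and -0.93 for BATF3. The list genes had been selected by small p or after their values were seen in these same data, so their passing is no independent support. Other list genes that passed, such as MLLT1 and SSR3, are not listed. Of all 13665 genes tested, 24.1% passed. Groups of 3 libraries were not searched for single outlying values.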

How the results depend on the processing

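XBP1 and IRF4 kept direction and call at 96 h under all 14 alternatives run, at log2 fold changes of -1.36 to -1.14 and -0.52 to -0.40, and so did their differences between times under 19. The XBP1 call at 24 h was lost with all 12 libraries in 1 fit (-0.34, adjusted p = 0.202, edgeR), and the number of genes called at 24 h fell from 1940 to 29 there. Values near 0 changed sign. IRF4 at 24 h was -0.018 with library size alone, -4.70e-05 without a filter, -0.0055 with the stricter filter, -1.93e-05 with the replicate block and -6.99e-05 with all 12 libraries. ELL2 at 24 h was -0.0081 and XBP1 between vehicle times was 0.0086 with library size alone. Leaving out 1 library gave IRF4 at 24 h -0.026 to 0.028, ELL2 at 24 h -0.017 to 0.062, ELL2 at 96 h -0.0063 to 0.24, the ELL2 difference -0.030 to 0.22, XBP1 between vehicle times -0.14 to 0.014 and ELL2 between vehicle times 0.30 to 0.49. It gave 980 to 2208 genes called at 24 h, 3438 to 7485 at 96 h and 1991 to 5712 for the difference. Without both libraries numbered 2 at 96 h, 8201 genes were called at 96 h and 6022 for the difference. Library size alone gave 563 higher and 1220 lower at 24 h against 980 and 960, and 4167 higher and 2503 lower between vehicle times against 3309 and 3207. PRDM1 had no value under the stricter filter. The numbering was checked on what was left of log2 CPM after the group mean of each gene was subtracted. In these remainders, same-numbered vehicle and GSK591 libraries correlated at 0.0050, 0.11 and 0.0079 at 24 h. At 96 h the remainders correlated at 0.27, 0.25 and 0.0085. Not every library correlated best with its own number, so the numbers are not read as pairs. The replicate block moved the calls to 2811 at 24 h, 6293 at 96 h and 4323 for the difference, with no member's call changed. Of 591 alternative values for named list genes, 0 reversed and 65 crossed the threshold, and 118 of 364 alternative counts of list genes moved by over 1.5 times or to or from 0. Leaving out 1 library gave PRDM1 at 24 h -0.44 to -0.24. PRDM1 rested on 9 to 16 counts in 5 of the 6 libraries of 96 h, and whether more depth would give a call was not tested.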
